A study of Homo sapiens with 6 samples.

Results

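The HOX genes are a family of 39 protein-coding genes in 4 clusters of the human genome, and the TTD peaks in, at and around them are described here. The members are the GENCODE release 44 protein-coding genes called HOXA, HOXB, HOXC or HOXD followed by digits, 39 of 20033 protein-coding genes. The HOXA cluster on chromosome 7 holds 11 of them, HOXB on chromosome 17 holds 10, and HOXC on chromosome 12 and HOXD on chromosome 2 hold 9 each.

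The study asked which histone marks the tandem Tudor domain (TTD) of UHRF1 reads. The chromatin protein UHRF1 acts in keeping DNA methylated, and its TTD binds histone H3 methylated at lysine 9. The paper reports that this binding is stronger when the H3 tail also carries H3K4me1, a methyl mark of enhancers. It places most TTD peaks on enhancers of the cells used. The values below measure neither mark. In CIDOP, a GST-tagged domain replaces the antibody of a ChIP experiment: here GST-UHRF1-TTD, residues 126 to 280, pulled native mononucleosomes out of untreated HepG2 cells, an established human hepatoblastoma line. The 2 TTD replicates, of 6 libraries in all, were averaged before peaks were called, so the values below come from 1 list of 31569 peaks that gives positions and widths but no height, no depth and no replicate. No spread between replicates can therefore be given, intervals on shares are 95% Wilson intervals that cover counting error only, and nothing below was tested. HepG2 is a single line, and the list holds no expression, so neither its liver origin nor the activity of a HOX gene could be checked from it.

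HOX proteins are homeodomain transcription factors that give cells their position along the head-to-tail axis of the embryo. In each cluster the genes stand in the order in which they are used along that axis, and they fall into 13 paralog groups, with groups at the low end acting in the hindbrain and neck and groups at the high end in the trunk, limbs and genitalia. In cells that do not use them, HOX clusters are a textbook target of Polycomb complexes, which place a mark on lysine 27 of histone H3, whereas methylated lysine 9 marks other kinds of silent or weakly active chromatin.

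In the 4 clusters together lay 5 TTD peaks, or 9.57 per Mb, beside 10.2 per Mb over the genome. For 3 of them, the 300 bases at the centre are shown first, read from the plus strand of hg38 with every CG dinucleotide in capitals, because they differ widely in CG content.
HOXA, first peak, chr7:27124496-27124795: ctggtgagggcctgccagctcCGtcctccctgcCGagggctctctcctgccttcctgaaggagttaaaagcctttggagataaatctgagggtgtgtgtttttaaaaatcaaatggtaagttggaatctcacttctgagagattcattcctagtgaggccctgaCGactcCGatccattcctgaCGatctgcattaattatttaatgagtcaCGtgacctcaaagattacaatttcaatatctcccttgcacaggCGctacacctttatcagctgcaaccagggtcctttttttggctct
HOXA, second peak, chr7:27134236-27134535: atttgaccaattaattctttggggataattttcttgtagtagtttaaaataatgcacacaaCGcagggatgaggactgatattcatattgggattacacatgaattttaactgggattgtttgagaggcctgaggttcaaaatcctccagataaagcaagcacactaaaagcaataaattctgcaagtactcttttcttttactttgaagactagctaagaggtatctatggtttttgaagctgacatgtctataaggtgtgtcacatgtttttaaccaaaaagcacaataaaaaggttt
HOXC, first peak, chr12:53978841-53979140: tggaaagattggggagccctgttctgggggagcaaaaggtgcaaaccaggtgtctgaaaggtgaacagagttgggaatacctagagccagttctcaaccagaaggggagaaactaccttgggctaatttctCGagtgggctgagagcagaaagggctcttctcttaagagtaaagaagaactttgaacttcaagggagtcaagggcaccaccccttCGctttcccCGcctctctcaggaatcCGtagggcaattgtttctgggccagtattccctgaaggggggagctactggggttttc
These centres held 7, 1 and 4 CG dinucleotides in that order, so the first HOXA centre holds most of the CGs printed.

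The first HOXA peak (chr7:27123781-27125510, 1730 bp) lies inside the long gene record of HOXA3, a regulator of pharyngeal organs. Of its bases, 48.0% are exonic, mostly in the antisense lncRNA HOXA-AS2, and 6.71% are exonic in HOXA3 itself. The second (chr7:27132791-27135980, 3190 bp) stands between HOXA4 and HOXA5, again inside the HOXA3 record but in no exon of it, with 6.96% of its bases in exons of HOXA-AS2. Both HOXA peaks thus flank HOXA4, which lies within the HOXA3 record on the same strand.

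The first HOXC peak (chr12:53977601-53980380, 2780 bp) is nearly all intergenic between HOXC11 and HOXC10, and 43 bp of it (1.55%) fall in the last exon of HOXC11. The second (chr12:53988181-53989470, 1290 bp) lies wholly inside the record of HOXC10, a gene of the lumbar spinal cord and hindlimb, and 23.4% of it is exonic there. The single HOXD peak (chr2:176181411-176191750, 10340 bp) is the widest of the 5: at percentile 97.9 of width, with 667 peaks of the list as wide or wider, it compares with a median width of 2250 bp over all peaks. This peak contains all of HOXD1, a group 1 gene of the early hindbrain and of sensory neurons, and runs from 7257 bp before its transcription start site (TSS) to 843 bp past the end of its record, so that 9497 bp of it count inside the cluster. HOXA and HOXC thus each held 2 peaks of common size, and HOXD held 1 broad peak at its end.

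**Figure D1:**
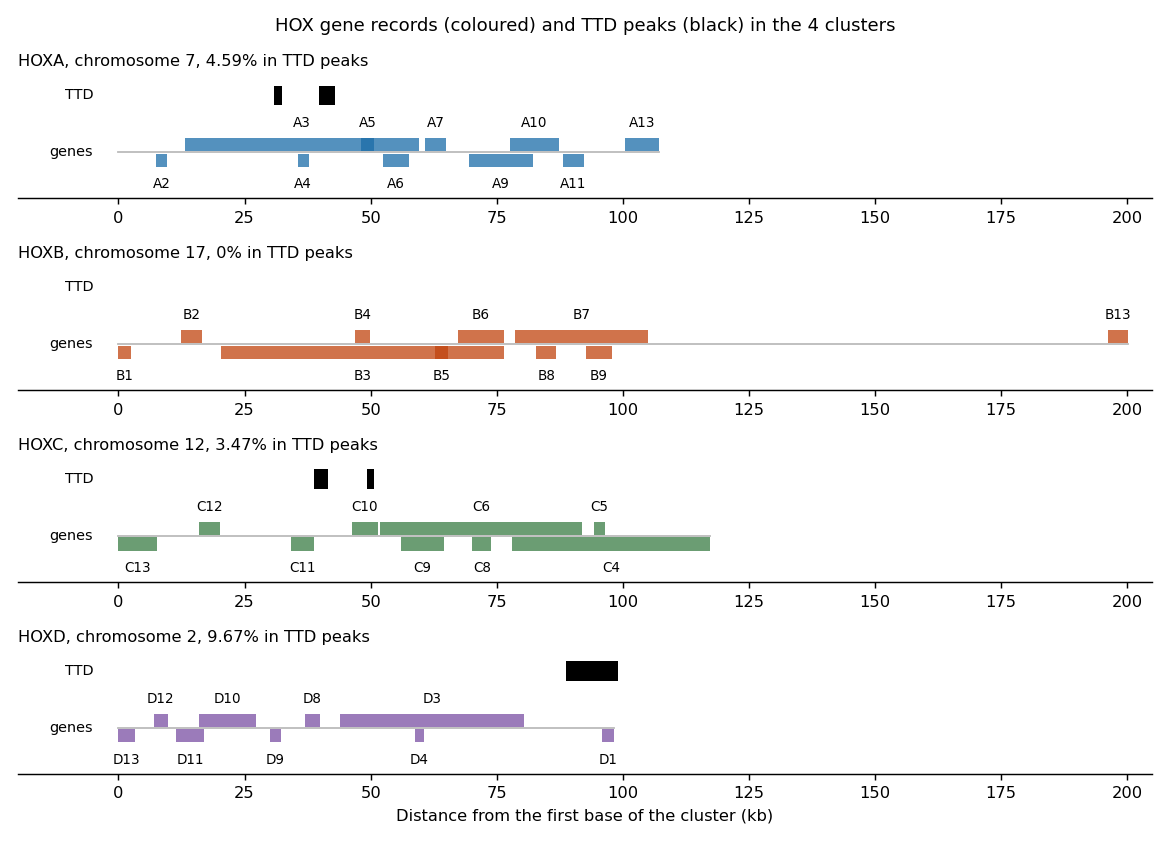
HOX gene records (coloured boxes, names shortened) and TTD peaks (black boxes) in the 4 clusters, with 38 of the 39 genes drawn to 1 scale in kb from the first base of each cluster. HOXA and HOXC hold 2 peaks each, HOXD holds 1 that covers HOXD1, and the row of HOXB is empty.

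In CG content the 5 peaks fell into unlike groups. The ratio of observed to expected CpG, which compares the count of CG dinucleotides with that of a random sequence of the same base composition, had a median of 0.193 over all peaks. The first HOXA peak reached 0.522 (61 CpGs, percentile 98.6 of all peaks) and the HOXD peak 0.464 (281 CpGs, percentile 97.7). The second HOXA peak, at 0.288, was at percentile 84.3. The HOXC peaks, at 0.218 and 0.222, lay near the middle of the list, at percentiles 62.6 and 64.3. The first HOXA peak, which spans exons of an antisense RNA, and the HOXD peak, which spans a promoter, were therefore richer in CpG than nearly all TTD peaks, and those of HOXC were not. GC content went from 39.2% in the second HOXA peak to 52.3% in the first, against a median of 43.2% over all peaks.

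Measured over whole clusters, from the first base of one outermost HOX gene to the last base of the other, TTD peaks covered 3.54% of 523 kb, beside 3.02% of the genome. The clusters held 9.57 peaks per Mb, beside 10.2 per Mb over the genome. As a group, the clusters were thus neither empty of TTD peaks nor dense in them, but they differed among themselves.

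HOXD (chr2:176092721-176190907, 98.2 kb) had the highest cover, 9.67%, all of it from the peak at HOXD1. Chromosome 2 as a whole had 5.67% cover and 17.2 peaks per Mb, above the genome. Among 2448 adjoining windows of the length of HOXD along this chromosome, 83.0% had as little cover or less. HOXA (chr7:27092993-27200091, 107 kb) had 4.59% cover on a chromosome with 2.59%, and 82.2% of 1487 such windows had as little. HOXC (chr12:53938831-54056030, 117 kb) had 3.47% cover on a chromosome with 2.72%, and 79.2% of 1137 windows had as little. These 3 clusters thus had more cover than most windows of their size, but 17.0% to 20.9% of the windows had as much or more, and 38.6% to 56.3% held no peak.

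HOXB (chr17:48528526-48728750, 200.2 kb) had no peak at all, although it is the longest cluster and chromosome 17 had 4.08% cover and 15.5 peaks per Mb. Of 415 adjoining windows of its length on chromosome 17, 105 (25.3%) also had none. The gap between peaks in which HOXB lies ran for 628 kb, from chr17:48162811 to 48790660, and contained the TSS of all 10 HOXB genes. Only 11 of the 1293 gaps on chromosome 17, this one included, were as long, and 2.25% of the 31532 gaps of the genome were, whose median is 22.8 kb. Long gaps hold more genes than short ones, and 14.3% of all protein-coding TSSs lay in gaps of this length or longer. An absent peak means that the averaged signal gave no call here, or that a call was removed by the blacklist or by hand, and does not give the level of TTD binding.

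The other clusters were also partly in long gaps. Of the 11 HOXA genes, 8 (HOXA3, HOXA5, HOXA6, HOXA7, HOXA9, HOXA10, HOXA11 and HOXA13) start in a gap of 464 kb that opens behind the second HOXA peak, and 19.6% of all protein-coding TSSs lay in gaps as long. Of the 9 HOXD genes, the 8 other than HOXD1 start in 1 gap of 160.4 kb, beside 50.3% of all TSSs in gaps of this length or longer. In HOXC, 3 genes (HOXC13, HOXC12 and HOXC11) start in a gap of 149 kb and 5 (HOXC6, HOXC9, HOXC8, HOXC4 and HOXC5) in one of 139.8 kb, with HOXC10 alone in the 7.80 kb between both peaks. HOXA4 likewise starts alone in the 7.28 kb between both HOXA peaks, and HOXA2 starts in a gap of 41.6 kb. In all, 34 of the 39 HOX genes (87.2%, 73.3 to 94.4) start in a gap of over 100 kb, beside 64.5% of all protein-coding genes, but these 34 share 5 gaps and are not independent.

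At the promoters, 3 of 39 HOX genes (7.69%, interval 2.65 to 20.3) had at least 1 bp of a TTD peak within 2.5 kb of the TSS, taken as the 5′ end of the gene record. Over all protein-coding genes, 3390 of 20033 TSSs (16.9%) had one, a share within the interval for the HOX genes. Windows of neighbouring HOX genes overlap and 1 peak can serve several, so the members are not independent and the interval is too narrow. The mean cover of the 5 kb windows was 3.48% ± 16.5 (SD over genes, n = 39), beside 5.30% ± 14.5 over all genes, and the median was 0 in both. With peaks of at least the median width only, the means were close, at 2.81% and 2.87%. HOXD1 alone supplied most of the HOX mean.

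HOXD1 (chr2, TSS at 176188668, plus strand) was the only HOX gene whose TSS itself lay in a peak (2.56% of the members, beside 2.94% of all genes), and its 5 kb window was covered to 100.0%. HOXC6 (chr12, TSS at 53990624, plus strand), a gene of the thoracic region, had 25.8% of its window in the second HOXC peak, which ends 1154 bp upstream. This is the most upstream start of HOXC6: the canonical transcript starts 37816 bp further downstream, and its window held no peak. HOXA4 (chr7, TSS at 27130780, minus strand), which patterns the neck, had 9.78% of its window in the second HOXA peak, which begins 2011 bp upstream. The 3 genes thus came from 3 clusters and from groups 1, 4 and 6, with covers that ran from the whole window to its outermost bases.

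Just outside the window stood HOXC10, with a peak 3116 bp downstream of its TSS, and HOXC11, with one 4475 bp downstream. Both were counted with windows of 5 kb on each side, which gave 5 of 39 genes (12.8%, 5.60 to 26.7) beside 22.1% of all genes. HOXA5, which acts in lung and the lower neck, and HOXC9, a gene of thoracic motor neurons, joined at 10 kb, for 7 of 39 (17.9%, 8.98 to 32.7) beside 29.9%. At 1 kb only HOXD1 was left (2.56%, 0.454 to 13.2), beside 11.1%. The HOX share lay below that of all genes with each of these 4 windows, and the share of all genes lay inside the HOX interval each time.

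**Figure D2:**
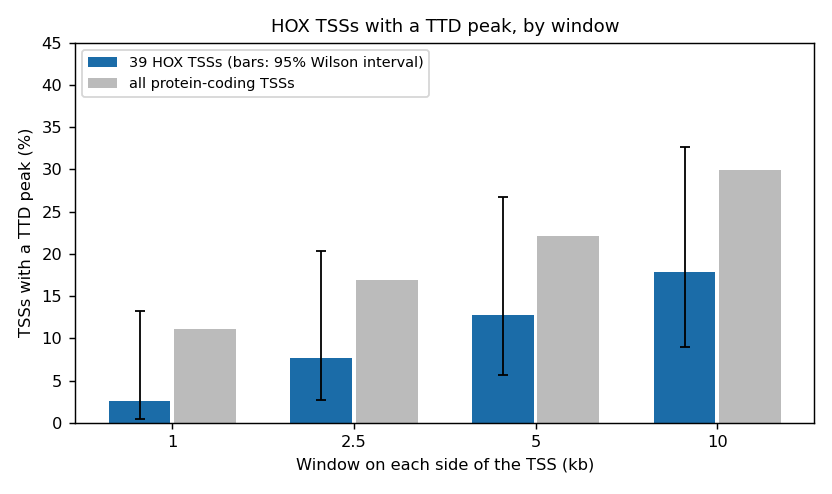
Share of TSSs with a TTD peak (percent) for windows of 1, 2.5, 5 and 10 kb on each side, for the 39 HOX genes (blue, with 95% Wilson intervals for counting error) and all 20033 protein-coding genes (grey). The HOX bars, from 2.56% to 17.9%, stand below the grey bars, from 11.1% to 29.9%, and each grey bar ends within the interval of the HOX bar beside it.

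The choice of TSS decided single genes. With the canonical TSS, HOXA4 and HOXD1 had a peak (5.13%, 1.42 to 16.9, beside 16.9% of all genes). With every annotated transcript start, HOXA4, HOXC6, HOXC10 and HOXD1 had one (10.3%, 4.06 to 23.6), beside 24.9% of all genes, a share just above the interval. Peaks of at least the median width reached HOXA4 and HOXD1 (5.13%, beside 7.29%), and at least 500 bp of peak was found at HOXC6 and HOXD1 (5.13%, beside 15.3%). At least 50% of the window was covered only at HOXD1 (2.56%, beside 2.57%). HOXD1 was the one gene counted under each of these rules.

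Within gene records, 4 of 39 HOX genes (10.3%, 4.06 to 23.6) met a peak, beside 34.2% of all genes, which is above the interval. HOX records had a median length of 4.22 kb, beside 27.5 kb over all genes, and the part of length in this difference was not tested. HOXD1 was covered to 100.0%, and 84.2% of that cover was exonic. HOXC10 was covered to 24.7%. HOXA3 was covered to 10.6% by both HOXA peaks together, and HOXC11 to 0.952%. HOXA4 and HOXC6, which had a peak in the TSS window, had none in the record.

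The distance from a HOX TSS to the nearest peak had a median of 44.3 kb (quartiles 18.1 and 78.0), beside 30.4 kb (6.71 and 87.8) over all genes. Beyond 50 kb lay 17 of the 39 HOX TSSs (43.6%), beside 38.4% of all, and beyond 100 kb lay 9 (23.1%), beside 22.1%. All 9 beyond 100 kb and 10 of the 17 beyond 50 kb are HOXB genes in 1 gap, so they are not independent. The median and the lower quartile of the HOX genes were thus longer than those of all genes, while the shares beyond 50 and 100 kb were close to theirs. With peaks of at least the median width only, the order of the medians turned, to 44.8 kb for the HOX genes and 88.2 kb for all genes. By cluster, the median was 20.5 kb in HOXA (2.01 to 64.1), 186 kb in HOXB (61.9 to 259.6), 19.5 kb in HOXC (1.15 to 43.6) and 58.7 kb in HOXD (0 to 78.8). With these TSSs, HOXB overlapped with HOXA and HOXD through HOXB13, and each other HOXB gene lay farther from a peak than any gene of the other clusters.

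Among the genes of groups 1 to 3, which act in the hindbrain and pharyngeal arches, 1 of 8 had a peak in the TSS window (12.5%, 2.24 to 47.1, beside 16.9% of all genes). In group 1, HOXD1 lay in a peak and HOXB1, a gene of the developing facial nerve, was 259.6 kb from one, the farthest of the family. In group 2, HOXA2, which patterns the second pharyngeal arch, lay at 20.5 kb and HOXB2 at 246 kb. In group 3, HOXA3 lay at 16.6 kb, HOXD3 at 44.8 kb and HOXB3 at 186 kb. In groups 2 and 3, HOXA genes thus lay nearer to a peak than HOXB genes, and the median over the 8 genes was 32.7 kb.

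In groups 4 to 8, which act from the neck to the thorax, 2 of 15 genes had a peak in the window (13.3%, 3.74 to 37.9, beside 16.9%), and the median distance was 29.9 kb, close to the 30.4 kb of all genes. In group 4, HOXA4 lay at 2.01 kb, HOXC4 at 27.5 kb, HOXD4 at 29.9 kb and HOXB4, a gene used by blood stem cells, at 212 kb. In group 5, HOXA5 lay at 7.70 kb, HOXC5 at 43.6 kb and HOXB5 at 197 kb. In group 6, HOXC6 lay at 1.15 kb, HOXA6 at 14.6 kb and HOXB6 at 186 kb. In groups 7 and 8, HOXA7 lay at 22.0 kb and HOXB7 at 157 kb, and HOXC8 at 19.5 kb, HOXD8 at 51.7 kb and HOXB8 at 175 kb. In each of these groups the HOXB member was the farthest from a peak.

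In groups 9 to 13, which act in the lower trunk, limbs and genitalia, 0 of 16 genes had a peak in the window (interval up to 19.4%, which holds the 16.9% of all genes), with a median distance of 54.0 kb. In group 9, HOXC9 lay at 5.42 kb, HOXA9, a gene of blood progenitors and leukaemia, at 39.2 kb, HOXD9 at 58.7 kb and HOXB9 at 164 kb. In group 10, HOXC10 lay at 3.12 kb, HOXA10 at 44.3 kb and HOXD10 at 72.6 kb, and in group 11, HOXC11 at 4.47 kb, HOXA11 at 49.3 kb and HOXD11 at 77.2 kb. In group 12, HOXC12 lay at 22.7 kb and HOXD12 at 78.8 kb, the farthest in HOXD. In each of groups 9 to 12, the HOXC gene was the nearest to a peak.

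Group 13, whose members shape digits and the urogenital tract, was the most even: HOXC13, a gene of hair and nails, lay at 38.8 kb, HOXB13, a prostate gene, at 61.9 kb, HOXA13 at 64.1 kb and HOXD13 at 71.7 kb. HOXA13 was the farthest of the HOXA genes and HOXB13 the nearest of the HOXB genes. The distances are set by the places of few peaks, so neighbours in a cluster share them, and no order within a cluster counts as separate evidence for each gene. With the canonical TSS, the distance moved by over 1.5 times for 4 genes, to 64.4 kb for HOXC4, 38970 bp for HOXC6, 10.7 kb for HOXC9 and 24.1 kb for HOXD3. HOXC4 then lay farther from a peak than HOXD4, HOXC6 farther than HOXA6, and HOXC4 in place of HOXC5 was the farthest gene of HOXC.

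**Figure D3:**
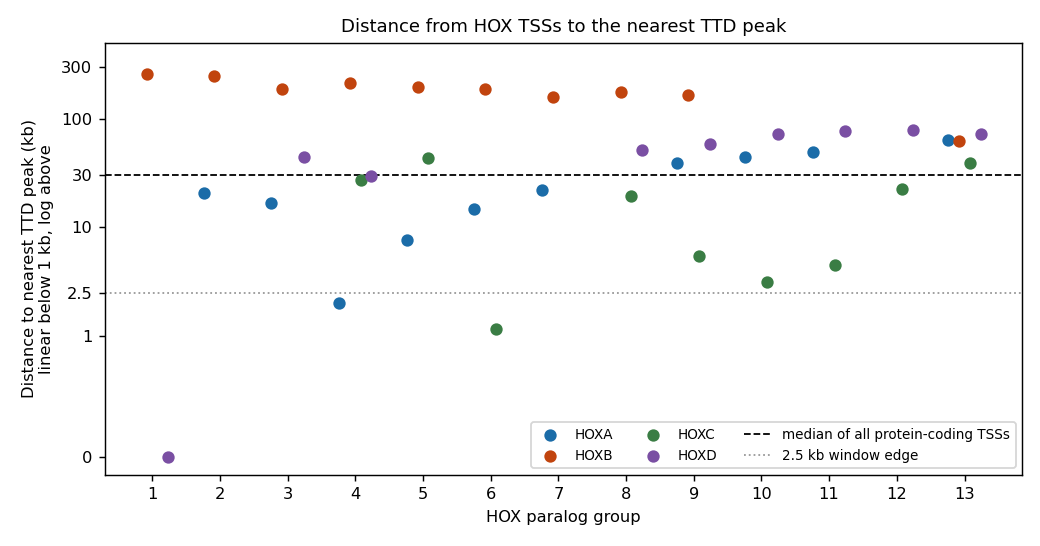
Distance from 38 of the 39 HOX TSSs to the nearest TTD peak (kb, linear below 1 kb and log above) by paralog group, coloured by cluster. The dashed line is the median of all protein-coding TSSs, 30.4 kb, and the dotted line the edge of the 2.5 kb window; 3 points lie below the dotted line, and the HOXB points of groups 1 to 9 lie above all others.

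Promoter sequences are printed for 1 gene of each cluster, to set the CG-rich start of HOXD1, which lies whole inside a peak, beside starts that have a peak upstream (HOXA4) or none in the window (HOXB1 and HOXC4). They run from 250 bases before to 50 bases after a RefSeq start (GRCh38.p14), 5′ to 3′ on the strand of the gene, with every CG in capitals. Of the 39 HOX genes, 20 matched the table, and HOXB13 and HOXC6 were among those that did not.
HOXA4, minus strand, chr7:27130708-27131007: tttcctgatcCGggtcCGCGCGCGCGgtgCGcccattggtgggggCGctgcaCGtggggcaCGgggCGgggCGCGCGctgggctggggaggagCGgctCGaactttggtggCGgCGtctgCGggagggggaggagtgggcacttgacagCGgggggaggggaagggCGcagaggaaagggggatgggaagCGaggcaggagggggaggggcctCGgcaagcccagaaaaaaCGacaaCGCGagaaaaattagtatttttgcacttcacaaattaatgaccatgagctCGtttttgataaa
HOXB1, minus strand, chr17:48530962-48531261: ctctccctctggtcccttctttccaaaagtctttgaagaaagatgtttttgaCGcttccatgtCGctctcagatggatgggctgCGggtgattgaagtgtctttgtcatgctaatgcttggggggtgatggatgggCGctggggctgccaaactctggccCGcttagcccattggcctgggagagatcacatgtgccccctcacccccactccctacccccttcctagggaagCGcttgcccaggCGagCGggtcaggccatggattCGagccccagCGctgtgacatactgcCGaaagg
HOXC4, plus strand, chr12:54016638-54016937: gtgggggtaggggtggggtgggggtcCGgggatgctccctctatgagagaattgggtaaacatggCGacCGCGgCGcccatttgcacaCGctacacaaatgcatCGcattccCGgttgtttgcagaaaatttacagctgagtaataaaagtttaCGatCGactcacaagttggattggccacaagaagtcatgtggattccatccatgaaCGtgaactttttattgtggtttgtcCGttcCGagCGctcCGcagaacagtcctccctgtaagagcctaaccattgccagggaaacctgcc
HOXD1, plus strand, chr2:176188418-176188717: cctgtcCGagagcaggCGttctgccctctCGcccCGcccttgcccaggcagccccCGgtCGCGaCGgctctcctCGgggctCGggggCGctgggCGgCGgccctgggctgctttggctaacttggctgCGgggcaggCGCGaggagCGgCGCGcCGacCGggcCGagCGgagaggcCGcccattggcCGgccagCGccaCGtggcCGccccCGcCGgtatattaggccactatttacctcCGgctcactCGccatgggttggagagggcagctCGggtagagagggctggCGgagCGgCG
They hold 27, 11, 15 and 36 CGs in that order. These 4 chosen genes cannot show whether CG content goes with peaks. Of the 9 HOX genes in the highest quartile of the CpG ratio, 1 had a peak in the window. HOXB1 is the HOX gene farthest from a peak, and the HOXC4 record starts 36904 bp from its canonical start. Over the 27 HOX promoters in the table the median was 22 CGs, beside 14 over all 35116, of which 96.0% hold at least 1.

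In the 1 kb around the 5′ end of the gene record, the HOX genes had values close to those of all genes: the median ratio of observed to expected CpG was 0.694 (range 0.274 to 0.980), beside 0.688, and the median GC content was 59.6%, beside 59.2%. For some HOX genes this end lies far from the canonical start, by 9643 bp for HOXA9 and 37816 bp for HOXC6. The ratio at canonical starts was not computed. At the RefSeq starts above, the HOX median was higher than that of all promoters, at 22 CGs beside 14. Over quartiles of this ratio set on all genes (bounds 0.329, 0.688 and 0.819), 1, 18, 11 and 9 HOX genes fell in the first to the fourth, with 0, 1, 1 and 1 peaks in the TSS windows. The shares over all genes were 15.1%, 15.5%, 20.0% and 17.1%. The median distance of HOX TSSs to a peak was 39.2, 36.7, 44.8 and 58.7 kb over these quartiles, beside 33.7, 34.5, 26.5 and 28.0 kb for all genes. The first quartile holds HOXA9 alone among the HOX genes, and the part of CpG content in the distances was not tested.

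The clusters also hold non-coding genes. Of 28 lncRNAs in them, 1 had a peak in the 5 kb TSS window, beside 13.3% of all lncRNAs: HAGLR, which starts next to HOXD1 on the other strand, with 100.0% of its window and 30.3% of its record in the HOXD peak. Several lncRNAs started just past the window: HOTAIR, known for its binding of Polycomb proteins, was 2.65 kb from a HOXC peak, HOXC-AS3 2.66 kb, and HOXA-AS3 2.81 kb from a HOXA peak. HOTTIP, at the HOXA13 end, was 62.6 kb away. These 4 were chosen after their values were seen. The median over the 28 lncRNAs was 29.0 kb, beside 38.0 kb over all lncRNAs, so this median was shorter than that of all lncRNAs, where that of the HOX genes was longer than that of all protein-coding genes. Of 4 other protein-coding genes in the clusters, 1 had a peak in the window, beside 16.9% of all protein-coding genes: the HOXC read-through gene ENSG00000273049 with 3.28%. The unclassified transcript ENSG00000279160, on the other strand beside HOXD1, had 34.3% of its window in the HOXD peak.

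Of 8 miRNA genes in the clusters, 2 had a peak in the window, beside 9.74% of all miRNA genes. MIR7704, in the HOXD peak with HOXD1, was covered to 100.0%, and MIR196A2, between HOXC10 and HOXC9, had 4.66% of its window covered by the second HOXC peak, 2.27 kb away. Mature 5p sequences of the miR-196 and miR-10 families, which are known to target HOX transcripts, are given below with the sequence of miR-7704. They are from RefSeq (GRCh38.p14), with the seed, bases 2 to 8, in capitals. All 8 miRNA genes matched, and miR-10b-5p did not.
hsa-miR-196a-5p, from MIR196A1 and MIR196A2: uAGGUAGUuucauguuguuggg
hsa-miR-196b-5p, from MIR196B: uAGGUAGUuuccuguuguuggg
hsa-miR-10a-5p, from MIR10A: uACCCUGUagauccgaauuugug
hsa-miR-7704, from MIR7704: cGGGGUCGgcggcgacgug
The 3 genes of the miR-196 family share 1 seed in the 5p sequence but not in the 3p sequence, which is not printed. MIR196A1 and MIR196A2 give the same 5p miRNA from different clusters. The 3 genes had unlike distances to a peak: 2.27 kb for MIR196A2 in HOXC, 33.6 kb for MIR196B in HOXA and 158 kb for MIR196A1 in HOXB. For miR-10, MIR10B in HOXD lay at 31.1 kb and MIR10A in HOXB at 211 kb.

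The flanking 500 kb on each side of the clusters, 4000 kb in all, held 75 peaks and had 5.86% cover. Cover in the flanks was thus higher than in the clusters as a group, and so it was for HOXA (5.63% in both flanks, 15 peaks), HOXB (7.77%, 25 peaks) and HOXC (4.63%, 14 peaks). HOXD was the exception, with 5.40% (21 peaks) in the flanks beside 9.67% within. The order depended on the length of the flank for HOXA, whose flanks had less cover than the cluster over 100 kb (1.54%) and 250 kb (4.05%), and for HOXC, whose flanks had less over 1000 kb (3.05%). Of 41 protein-coding TSSs in the flanks, 12 had a peak in the 5 kb window (29.3%, 17.6 to 44.5), beside 16.9% of all genes and 7.69% of the HOX genes, and their median distance was 21.7 kb. The interval of the flanks lies just above the share of all genes and overlaps that of the HOX genes, and neighbouring genes that share a peak are not independent.

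The flanks were uneven. At the end of HOXB that carries HOXB13, cover was 14.8% with 23 peaks, the first 61.9 kb from the edge, while at the HOXB1 end it was 0.792% with 2 peaks, the first 366 kb away. At HOXA the group 13 end had 5.91%, in peaks that begin 399969 bp from the edge, and the other end 5.36%, from 10.8 kb on. At HOXC the group 13 end had 5.43% and the HOXC4 end 3.84%. At HOXD the group 13 end had 8.52% and the HOXD1 end 2.28%. The group 13 end was higher in 4 of 4 clusters over 500 kb, but in 1 of 4 over 100 kb, 2 over 250 kb and 3 over 1000 kb, so this order depends on the length of the flank.

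**Figure D4:**
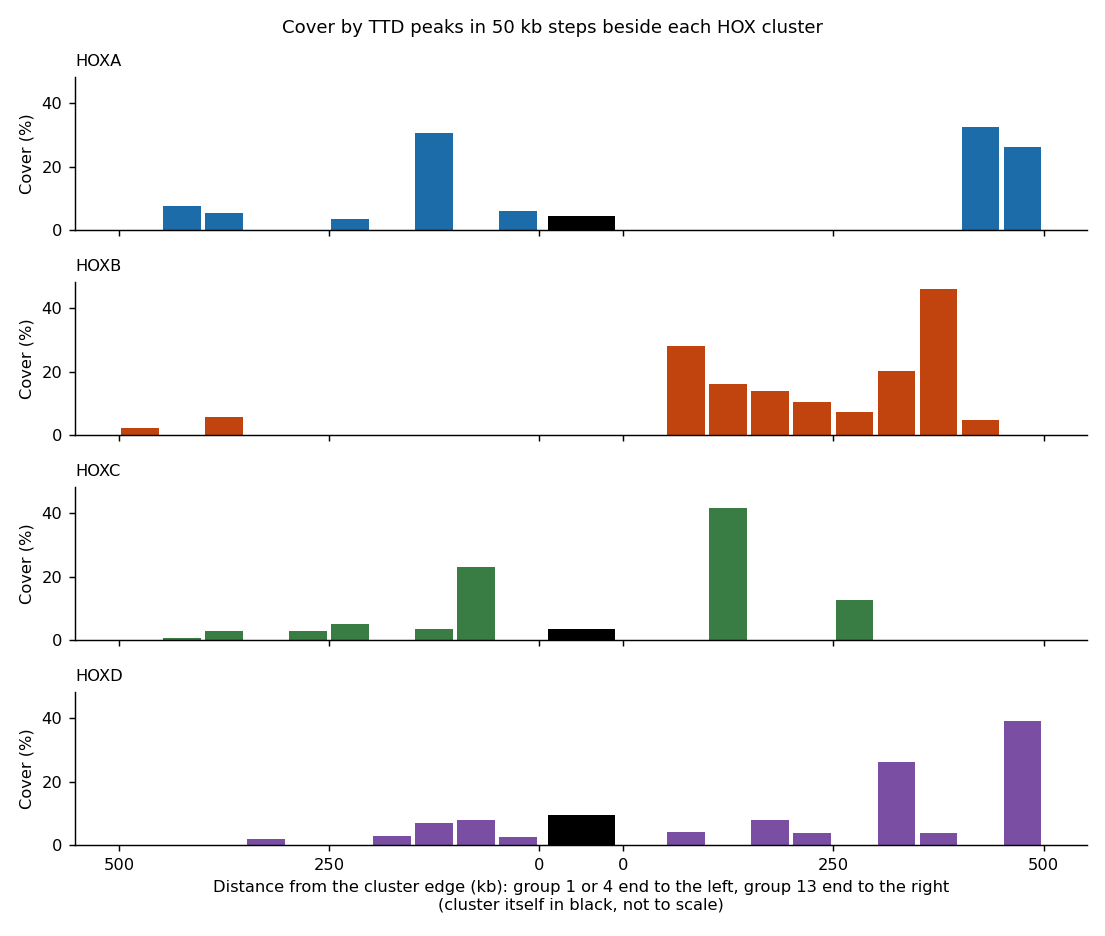
Cover by TTD peaks (percent) in 50 kb steps over 500 kb on each side of the 4 clusters, with the end of the group 13 gene to the right and the cluster itself in black, not to scale. HOXB lies between a left flank with 0.792% cover and a right flank with 14.8%, and the highest step, 46.0%, is on its right.

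The protein-coding gene nearest the edge had no peak in its TSS window in 6 of 8 flanks, beside 83.1% of all protein-coding genes without one. Among these were the homeobox genes EVX1 (42.6 kb past HOXA13, 107 kb from a peak) and EVX2 (8.76 kb past HOXD13, 62.9 kb from a peak), which are ancient neighbours of the HOX clusters. SKAP2 and SKAP1, which encode adaptors of immune cells and lie beyond the other end of HOXA and of HOXB, were 18.8 and 267 kb from a peak. TTLL6 beyond HOXB13 was 6.80 kb from one, and CALCOCO1 beyond HOXC13 51.7 kb. The exceptions were MTX2, a gene of mitochondrial protein import beyond HOXD1, with 75.3% of its window in peaks, and SMUG1, a DNA repair glycosylase beyond HOXC4, with 37.2%. SMUG1 was the one flank gene whose TSS lay in a peak.

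Further out, cover at TSSs was spread over genes of varied roles. Beyond HOXB13, SNF8, a part of the endosomal sorting machinery, had 40.4% of its window in peaks, the autophagy receptor gene CALCOCO2 39.1% and GIP, which encodes a gut hormone, 28.1%. Beyond HOXC4, COPZ1, which encodes a coat protein of Golgi vesicles, had 36.8%, and NFE2, a blood transcription factor gene, 33.1%. HIBADH, a gene of valine breakdown 463 kb past HOXA13, had 35.0%. ATP5MC2, a gene of the ATP synthase 261 kb past HOXC13, had 22.1%, and the stress factor gene NFE2L1, 480.2 kb past HOXB1, had 21.6%. The 12 flank genes with a peak lay 78.5 to 480.2 kb from a cluster edge.

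Genes related to HOX by family or function were compared as lists. Of 21 other homeobox genes of the ANTP class, the class to which HOX genes belong, 1 (CDX1, 3.06% of the window) had a peak, or 4.76% (0.846 to 22.7), with a median distance of 41.0 kb, close to the 44.3 kb of the HOX genes. Of 9 HOX cofactors, which bind DNA together with HOX proteins, 2 had one (22.2%, 6.32 to 54.7): PKNOX1 with 53.0% and PBX2 with 36.4% of the window. The cofactors had a median distance of 55.6 kb, the longest of the 3 lists. Of 18 regulators of HOX chromatin, such as Polycomb and KMT2 proteins, 1 (EZH1, a Polycomb methyltransferase, 6.60%) had one (5.56%, 0.988 to 25.8), with a median of 49.3 kb. Against 16.9% of all genes, each of the 3 intervals holds the background, so no list is set apart by its count.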

How the data were processed

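Chromatin binding of the TTD was measured by CIDOP in 2 replicates, beside 2 H3K9me2 ChIP and 2 input libraries that were not analysed here. Following the submitters' processing notes and the study's methods, the authors checked and trimmed the reads (FastQC 0.72, Trimmomatic 0.38), mapped them to hg38 (HISAT2 2.2.1), computed coverage in 10 bp bins without blacklisted regions (deepTools 3.3.2) and averaged both replicates. Broad peaks were called on the mean with MACS2 2.1.1 (a cutoff of 30, a linking cutoff of 13 and a minimum length d of 150), and blacklisted regions, artifacts and large false positives were taken out. The list deposited by the authors gives positions and widths in bp only. The methods state a minimum number of reads per library, but the depth of each is unknown here, a region without a peak has no measured level, and no correction for copy number is named in the methods.

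Cover, counts and distances were computed by interval arithmetic against GENCODE release 44 on the same build. A cluster runs between its outermost HOX gene records. The TSS is the 5′ end of the gene record, with a window of 2.5 kb on each side, and a gap is the stretch between neighbouring peaks of a chromosome. Adjoining windows of a cluster's length were counted from the chromosome start, leaving out those with over 50% unknown bases. Alternatives were the 15790 peaks of at least 2250 bp, other windows, other TSSs and other flanks. All values are descriptive, beside those of all 20033 protein-coding genes, since 1 pooled list allows no test between replicates.

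Named with full values were HOX genes with a peak in the TSS window or record, the nearest and farthest in each cluster, up to 3 genes a flank and 4 genes a list with the most cover, and the gene nearest each edge. The members, lists and rule were chosen with earlier results of these data known, and 1 HOX gene and the sequences of some peaks are not reported here. On simulated data, the procedures for bases in a window, peaks in a window and distance gave the known answer in 200 of 200 sets each. Python 3.11.15, numpy 2.4.6, scipy 1.17.1 and matplotlib 3.10.9 were used.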

Additional observations from a re-analysis of the deposited data

How the results depend on the processing

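No paired analysis was possible because both TTD replicates were averaged before the peaks were called, and for the same reason no replicate could be left out. Only the peaks of at least the median width, 3 of the 5 in the clusters, gave 2.98% cover in HOXA, 2.37% in HOXC, a mean cover of 2.81% at the HOX TSSs (2.87% over all genes), a median distance of 44.8 kb (88.2 kb over all genes, so that the order of the medians turned) and 4.72% cover in the flanks. Clusters extended by 10 kb on each side had 3.87% (HOXA), 2.97% (HOXC) and 8.75% (HOXD) cover. HOXB stayed at 0 under each alternative run, also without HOXB13, and HOXD at 9.67% with the wide peaks. The number of HOX TSSs with a peak was 1 with windows of 1 kb on each side, 5 with 5 kb, 7 with 10 kb and 1 when 50% of the window had to be covered. It was 2 to 4 with the wide peaks, at least 500 bp of overlap, canonical TSSs or any transcript start. The mean cover was 2.56%, 3.72% and 3.46% with windows of 1, 5 and 10 kb, and 2.80% with canonical TSSs, for which the median distance was 43.6 kb (30.5 kb over all genes). The median cover was 0 throughout. Flanks of 100 kb, 250 kb and 1 Mb had 4.53%, 5.51% and 4.71% cover. The causes of these shifts were not tested. Which HOX genes count as having a peak thus rests on few peaks near the window edge, and the list carries no height by which weak calls could be set apart.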

Other observations

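The regions around the HOX clusters hold further genes that come in related pairs or groups, 1 beside each of several clusters, and these pairs were chosen after their values were seen. CALCOCO2 beyond HOXB13 had 39.1% of its TSS window in TTD peaks, and its relative CALCOCO1 beyond HOXC13 had 0, with the nearest peak 51.7 kb away. COPZ1 beyond HOXC4 had 36.8%, and COPZ2 beyond HOXB1 had 0, at 9.04 kb from a peak. ATP5MC2 beyond HOXC13 had 22.1%, and ATP5MC1 beyond HOXB13 had 0, but its nearest peak lay 2506 bp from the TSS, just past the window. NFE2L1 beyond HOXB1 and NFE2 beyond HOXC4, which encode related bZIP transcription factors, both had peaks, with 21.6% and 33.1%.

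CBX1 beyond HOXB1 and CBX5 beyond HOXC4 encode HP1 proteins, which read the same methylated lysine 9 of histone H3 as the TTD. Neither had a peak in the window, with distances of 53.3 and 21.7 kb. EVX1 and EVX2, and SKAP1 and SKAP2, also had none. Of these 7 pairs, 1 had peaks at both genes, 3 at 1 gene and 3 at neither, and since 16.9% of all genes and 29.3% of the flank genes had a peak, this tally is a description only.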
